A study of Mus musculus with 8 samples.

Results

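Genes of sterol and fatty acid synthesis were examined in mouse glomerular mesangial cells (MMC), the contractile support cells of the kidney glomerulus, from wild-type (WT) mice and from mice lacking the microRNA miR-379 (miR-379KO). The genes were 27 of the 24639 gene entries counted in every library, taken by symbol from a fixed list that covers enzymes, regulators and a carrier of these pathways. They comprised 7 genes of the mevalonate and isoprenoid steps, 9 of the steps from squalene to cholesterol, 4 regulators or carriers and 7 of the fatty acid steps. All MMC were primary cells of the C57BL/6J strain, grown in RPMI 1640 medium with 10% foetal bovine serum and left untreated. The miR-379KO cells came from mice edited with CRISPR-Cas9 nickase, in which the deletion is carried in every tissue and not only in MMC. Total RNA was sequenced after poly(A) selection with strand information, and RNA bound to the Argonaute protein AGO2, which carries microRNAs to their targets, was sequenced after UV cross-linking and immunoprecipitation (AGO2-IP). This gave 4 groups of 2 replicates, A and B, and 8 libraries in all. The study calls A and B independent samples, but whether they came from separate mice or cultures was not stated in the sources used here, so p-values measure the spread between these samples only.

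Cholesterol is built from acetyl-CoA through mevalonate, isoprenoids, squalene and lanosterol, and fatty acids are built from the same acetyl-CoA pool. Transcription of both pathways is driven by the sterol regulatory element binding proteins, SREBP-2 for sterols and SREBP-1 for fatty acids. INSIG1 holds SREBP and its escort SCAP in the endoplasmic reticulum when sterols are plentiful. Genes of the sterol steps are therefore known to move together when cellular sterols change.

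Among the mevalonate steps, Hmgcs1 and Idi1 had the largest differences between WT replicates. Idi1 alone passed the edgeR test as higher in miR-379KO AGO2-IP, and Fasn is the central enzyme of the fatty acid steps. The promoters of Hmgcs1, Idi1 and Fasn are therefore shown. Each is the 300 bases around an annotated transcript start in RefSeq on GRCm38.p6, with 250 bases before it and 50 after. For Fasn this start lies inside the gene's outermost extent, which is the one given with its values. Capitals mark TCACNCCAC, the core letters of a sterol regulatory element, and CCAAT, the letters bound by NF-Y, each in either orientation (CCAAT reads ATTGG on the other strand, and the 2 orientations overlap in the run of 8 capitals in Fasn). The Hmgcs1 window is chr13:119690101-119690400 on the plus strand, the Idi1 window is chr13:8885356-8885655 on the plus strand, and the Fasn window is chr11:120824498-120824797 on the minus strand.
Hmgcs1: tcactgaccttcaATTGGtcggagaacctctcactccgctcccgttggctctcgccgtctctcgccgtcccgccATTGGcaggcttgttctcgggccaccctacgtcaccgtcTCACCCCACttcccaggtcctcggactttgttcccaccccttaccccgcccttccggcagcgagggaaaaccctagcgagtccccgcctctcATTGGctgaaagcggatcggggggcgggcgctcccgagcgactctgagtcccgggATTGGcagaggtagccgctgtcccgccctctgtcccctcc
Idi1: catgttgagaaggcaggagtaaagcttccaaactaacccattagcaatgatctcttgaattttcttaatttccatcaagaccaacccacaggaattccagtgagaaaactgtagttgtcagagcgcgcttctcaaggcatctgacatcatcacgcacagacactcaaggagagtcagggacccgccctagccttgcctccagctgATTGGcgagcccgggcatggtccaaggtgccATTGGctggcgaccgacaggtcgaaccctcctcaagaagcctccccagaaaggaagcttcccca
Fasn: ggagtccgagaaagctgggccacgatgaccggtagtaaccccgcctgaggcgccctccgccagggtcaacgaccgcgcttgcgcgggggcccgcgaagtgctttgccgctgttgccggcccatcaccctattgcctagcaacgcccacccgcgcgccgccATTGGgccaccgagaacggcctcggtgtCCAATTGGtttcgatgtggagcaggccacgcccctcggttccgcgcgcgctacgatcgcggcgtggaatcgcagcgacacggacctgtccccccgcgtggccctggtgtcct

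Promoter windows were found for 21 of the 27 genes. CCAAT was present in 17 of these 21 genes (81.0%), compared to 41.1% of the 27025 genes with a promoter in the table. A gene counted if any of its windows held the motif, and the 27025 genes had 32851 windows. Those 27025 genes were not limited to genes expressed in MMC, and a comparison with expressed genes only was not made. GGGCGG, the letters bound by SP1, was also present in 17 of 21 (81.0%), compared to 38.2% of all genes with a promoter. TCACNCCAC was found in 1 of 21 (4.76%), compared to 1.44% of all genes, and that gene was Hmgcs1, with the first letter of the match at -137 from the start. Both strands were searched, and a match is only a run of letters. Matches of different motifs did not overlap in the windows of these genes. The mature strand of the deleted microRNA is shown because it defines the site that was searched for in transcripts, with the seed (bases 2 to 8) in capitals. It lies at chr12:109709065-109709085 on the plus strand.
miR-379-5p: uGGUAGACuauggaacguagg

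The match to this seed, GTCTACC, was absent from the longest annotated 3′-UTR of all 27 genes, whereas 777 of 19140 entries with a 3′-UTR (4.06%) contained it. The genes had a median exon length of 3460 bases and a median GC content of 49.2%, close to the 3196 bases and 50.2% over the 12292 tested genes with an exon model.

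Total RNA libraries held 17168230 to 22660743 gene counts and AGO2-IP libraries 5587611 to 17095021. The ribosomal RNA precursor Rn45s and Lars2 took 80.0% to 89.0% of the gene counts in AGO2-IP and 4.67% to 9.58% in total RNA, and the 27 genes received 32719 to 45655 counts per total RNA library and 1494 to 2888 per AGO2-IP library. The targeted gene could not serve as a check of the genotypes, because Mir379 had 0 counts in every total RNA library and 0 to 4 in AGO2-IP. A background in AGO2-IP was read from 4804 autosomal protein-coding genes without any count in total RNA. Their rate in counts per kb of exon was 1.4 in A and 0.945 in B for WT AGO2-IP, but 3.19 in A and 3.63 in B for miR-379KO AGO2-IP, so the deeper WT libraries carried the lower rate. In total RNA, the summed level of the 7 mesangial markers was 12303 to 18078 CPM (gene counts scaled to library size). Marker sums are in CPM without TMM factors. Elsewhere CPM use TMM factors, which set libraries to a common centre. The mesangial sum came mostly from Acta2 (115436 to 243929 counts) and Vim (88635 to 154731). Pdgfrb had 1913 to 4147 counts, Cspg4 1193 to 1910 and Des 1801 to 14442, but Itga8 had 7 to 38 and Thy1 0 to 3. Macrophage markers summed to 1.75 to 5.35 CPM, endothelial markers to 0.0563 to 2.12 CPM, tubule markers to 2.1 to 49.1 CPM and adipocyte markers to 2.97 to 9.91 CPM. The adipocyte markers Plin1 and Cidec were at 0, as were the tubule markers Slc34a1 and Umod. The 4 podocyte markers summed to 252.4 to 613.7 CPM, mostly from Synpo (3561 to 10980 counts). Wt1 had 527 to 1566 counts and Podxl 301 to 575, but Nphs1 had 0 to 4. The part of the podocyte markers in the results was not tested. In bulk RNA, fewer cells of a type and less RNA per cell cannot be told apart.

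In WT total RNA, Fads1, Acly and Fads2 had the highest levels of these transcripts per kb of exon. Fads1, the delta-5 desaturase, stood at 69.9 ± 3.27 CPM per kb (SD, n = 2) and Acly, which makes cytosolic acetyl-CoA from citrate, at 69.7 ± 23.7 CPM per kb. Fads2, the delta-6 desaturase, followed at 52.4 ± 2.49 CPM per kb and Fdps, the farnesyl diphosphate synthase, at 43.8 ± 14.3 CPM per kb. Msmo1, a sterol C4 methyl oxidase, was at 33.7 ± 0.40 CPM per kb and was the lowest of the 5 genes at the top. The lowest levels belonged to Pmvk, the phosphomevalonate kinase, at 3.39 ± 0.396 CPM per kb, Elovl6, a fatty acid elongase, at 3.59 ± 1.55, and Lss, the lanosterol synthase, at 3.62 ± 0.233. Most neighbours in the order overlapped between replicates. The ranges of the WT replicates separated at only 5 places in the order, namely Msmo1 from Fasn below it, Sqle from Cyp51, Nsdhl from Acat2, Acat2 from Mvd, and Mvd from Stard4.

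**Figure D1:**
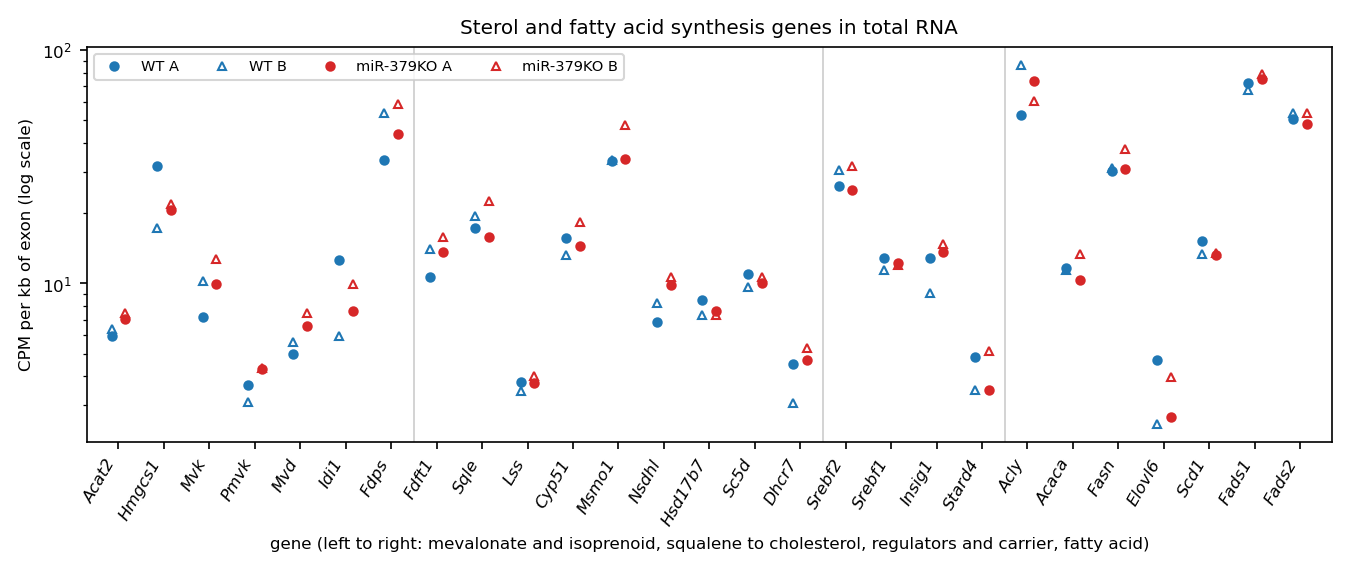
Levels of the 27 genes in total RNA, in CPM per kb of exon on a log axis, with 1 point per library (circles, replicate A; triangles, replicate B; blue, WT; red, miR-379KO). Levels run from about those of Pmvk and Elovl6 to those of Fads1 and Acly, and the points of the genotypes overlap for most genes.

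None of the 27 genes passed the test between genotypes in total RNA. With edgeR's quasi-likelihood test, 0 of 27 genes passed an adjusted p of 0.05, and 0 of 27 had an unadjusted p under 0.05. Over all 12321 genes tested, 0 passed as well (0.0%), and 91 (0.739%) had an unadjusted p under 0.05, and DESeq2 likewise called 0 of the 27. The median log2 fold change of the 27 genes was 0.10, with 19 genes above 0, compared to -0.01 over all genes. Leaving out 1 library moved this median to 0.01 without miR-379KO B, 0.12 without WT B, 0.17 without WT A and 0.29 without miR-379KO A.

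By role, the median log2 fold change in total RNA was 0.23 for the mevalonate and isoprenoid steps, 0.19 for squalene to cholesterol, 0.03 for regulators and carrier and -0.04 for the fatty acid steps. Nsdhl, a C4 decarboxylating dehydrogenase of the late sterol pathway on the X chromosome, had the largest value. It was at 15.2 and 18.2 CPM in WT A and B and at 21.9 and 23.7 CPM in miR-379KO A and B. Both miR-379KO values lay above both WT values, and the log2 fold change was 0.45 ± 0.23 (SE, edgeR, adjusted p = 1.0).

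Mvd, the mevalonate diphosphate decarboxylase, was at 9.31 and 10.5 CPM in WT and at 12.3 and 14 CPM in miR-379KO (log2 fold change 0.41 ± 0.25 SE). Pmvk was at 6.26 and 5.31 CPM in WT and at 7.3 and 7.4 CPM in miR-379KO (0.35 ± 0.29). In both genes the genotypes did not overlap. Mvk, the mevalonate kinase, which acts before PMVK, was at 12.4 and 17.7 CPM in WT and at 17.2 and 22.1 CPM in miR-379KO, and here the genotypes overlapped (0.38 ± 0.28). Dhcr7, which completes cholesterol from 7-dehydrocholesterol, was at 14 and 9.41 CPM in WT and at 14.4 and 16.3 CPM in miR-379KO. Insig1 was at 34.2 and 24.1 CPM in WT and at 36.1 and 38.9 CPM in miR-379KO. The genotypes of Dhcr7 and Insig1 separated only narrowly, by less than the gap between their WT replicates, with log2 fold changes of 0.39 ± 0.28 and 0.36 ± 0.25.

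In all, 8 of 27 genes had both miR-379KO values above both WT values, compared to 9.89% of all genes, and 0 of 27 had both below, compared to 9.07%. The 8 were Acat2, Dhcr7, Fads1, Insig1, Msmo1, Mvd, Nsdhl and Pmvk. Srebf2 and Srebf1, the genes of SREBP-2 and SREBP-1, had log2 fold changes of 0.00 ± 0.23 and -0.01 ± 0.21. Their 95% intervals ran from -0.54 to 0.55 and from -0.51 to 0.49, which leaves room for changes of either sign. The lowest value of the set was that of Hmgcs1, the HMG-CoA synthase, at -0.20 ± 0.32.

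Between the WT replicates the 27 genes did not all move the same way. The log2 ratios of B over A ran from -1.07 to 0.71, compared to fitted genotype differences of -0.20 to 0.45. These are comparisons of 1 library with 1 library and carry no test. In WT, 5 of 27 genes differed by over 1.5-fold between B and A, 2 higher in B and 3 lower, compared to 32.9% of all genes in either direction. The median log2 ratio of B over A was -0.10, with 12 of 27 genes higher in B.

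The 5 genes fell on both sides. Idi1, the isopentenyl diphosphate isomerase, was at 36.0 CPM in WT A and 17.1 in WT B, and at 21.9 and 28.5 CPM in miR-379KO A and B. Hmgcs1, at the entry of the mevalonate pathway, was at 113.6 and 61.7 CPM in WT and at 74.1 and 78.3 CPM in miR-379KO. Elovl6 was at 27.9 and 14.8 CPM in WT and at 15.9 and 23.7 CPM in miR-379KO. For all 3 genes WT A was the highest of the 4 libraries, and the log2 ratios of B over A in WT were -1.07, -0.88 and -0.91. Fdps, which acts directly after IDI1, went the other way, with 49.3 and 78.8 CPM in WT and 64.1 and 85.9 CPM in miR-379KO. Acly was at 234.4 and 382.8 CPM in WT and at 328.1 and 269.4 CPM in miR-379KO. For Fdps and Acly WT A was the lowest library, and the WT log2 ratios were 0.68 and 0.71. Dhcr7 fell just inside the 1.5-fold limit at -0.57.

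In miR-379KO, 24 of 27 genes were higher in B than in A, but by little. The median log2 ratio was 0.18, the range was -0.28 to 0.58 and 0 of 27 passed 1.5-fold, compared to 15.9% of all genes. Over all genes the median was 0.00 and 49.8% were higher in B. The largest ratios were those of Elovl6 at 0.58, Stard4, a cytosolic sterol carrier, at 0.56, and Sqle, the squalene epoxidase, at 0.50. The exceptions were Acly at -0.28, Hsd17b7 at -0.05 and Srebf1 at -0.02. Between the genotypes, 14 genes went opposite ways from A to B, 11 were higher in B in both and 2 were lower in B in both. The letters were not treated as pairs across genotypes, so these counts describe the libraries only. Other lists also differed between the replicates, as sums in CPM without TMM factors. The podocyte markers summed to 613.7 and 252.4 CPM in WT A and B and to 578.7 and 315.2 CPM in miR-379KO A and B. The tubule markers summed to 2.1 and 49.1 CPM in WT and to 26.7 and 8.62 CPM in miR-379KO, and the genes of the liver X receptor and lipid storage to 315.5 and 635.3 CPM and to 479.4 and 394.7 CPM. Their part in the replicate differences was not tested.

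**Figure D2:**
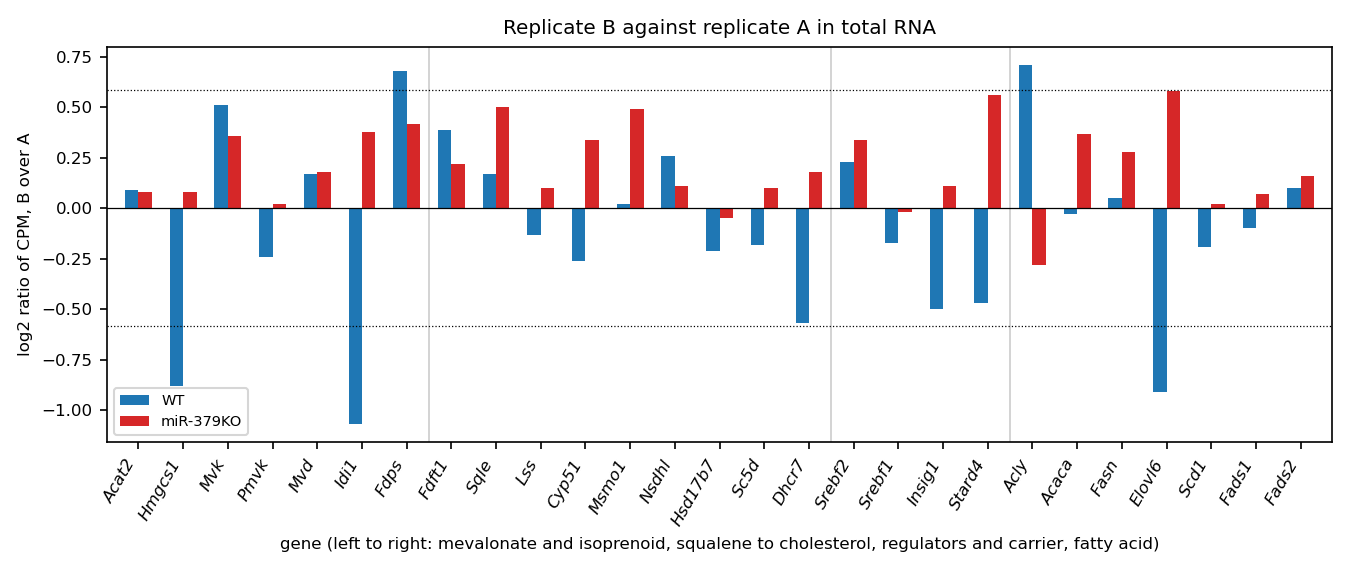
Log2 ratio of CPM in replicate B over replicate A in total RNA for each of the 27 genes (blue bars, WT; red bars, miR-379KO; dotted lines, 1.5-fold). In WT, Idi1, Elovl6 and Hmgcs1 point down and Acly and Fdps point up past the lines, while 24 of 27 miR-379KO bars point up and none passes a line.

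In AGO2-IP, 6 of the 24 genes that passed the filter on low counts were lower in miR-379KO MMC than in WT MMC and 1 was higher. Acat2, Pmvk and Mvd did not pass the filter, with at most 18 counts in any AGO2-IP library. The lower genes were both SREBP genes, Srebf1 and Srebf2, the fatty acid genes Fasn, Scd1 and Fads2, and Sqle, and the higher gene was Idi1. Over all 13505 genes tested, 9.52% were lower and 21.4% were higher, and the median log2 fold change was -0.36 for the 24 genes compared to -0.01 for all genes. DESeq2 called 0 of the 24 genes in either direction, compared to 2.21% lower and 3.72% higher of all genes.

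The abundance of a transcript went with its change in this comparison. Among genes with a mean over 1000 counts in total RNA, 963 of 3651 (26.4%) were lower in miR-379KO cells in this assay, and their median log2 change was -0.45. Of the 27 genes, 12 were in this class and 5 of them were lower, with a median of -0.53, while the other 12 tested had a median of 0.01. Over the 24 genes Spearman's rho between the AGO2-IP change and the level per kb in WT total RNA was -0.53, and that with exon GC content was -0.65. All points share the same libraries, and these are descriptions across genes. The silent-gene rate, which was higher in miR-379KO AGO2-IP than in WT AGO2-IP, moved with the genotype, and its part in the calls was not tested.

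**Figure D3:**
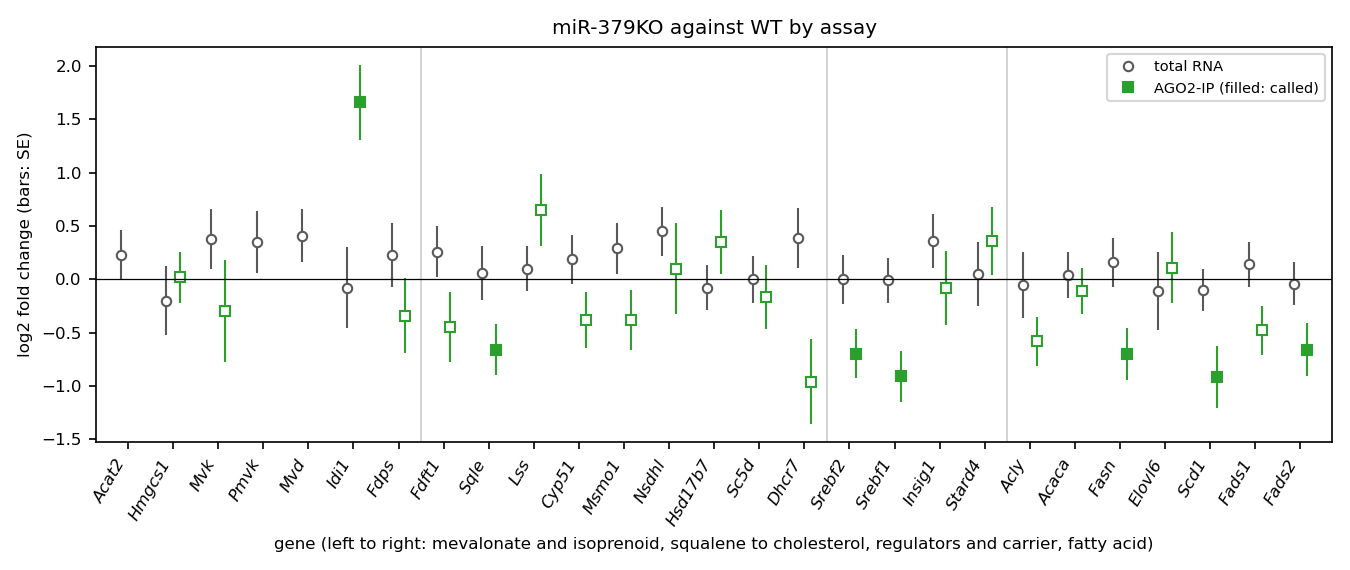
Log2 fold change of miR-379KO over WT for each gene, with bars of 1 standard error, in total RNA (grey circles) and in AGO2-IP (green squares, filled where the adjusted p was under 0.05). The total RNA values lie between -0.20 and 0.45, and in AGO2-IP Idi1 stands at 1.66 while Sqle, Srebf2, Srebf1, Fasn, Scd1 and Fads2 are filled below 0.

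Among the regulators, Srebf1 (chromosome 11, 60199084 to 60224186, minus strand) was at 19.7 and 14.6 CPM in WT AGO2-IP A and B and at 10.8 and 7.41 CPM in miR-379KO. Srebf2 (chromosome 15, 82147269 to 82205379, plus strand) was at 22.5 and 26.4 CPM in WT and at 16.8 and 13.2 CPM in miR-379KO. Both genes were lower in both miR-379KO libraries than in either WT library. Srebf1 fell by 0.91 on the log2 scale (± 0.24 SE, edgeR, adjusted p = 0.00778) and Srebf2 by 0.70 (log2 fold change -0.70 ± 0.23, adjusted p = 0.0223), with 0.00 and -0.01 in total RNA for Srebf2 and Srebf1. Insig1 and Stard4 did not pass, at -0.08 ± 0.35 and 0.36 ± 0.32.

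In the fatty acid steps, Fasn, the fatty acid synthase (chromosome 11, 120805958 to 120825166, minus strand), was at 55.0 and 61.7 CPM in WT AGO2-IP and at 37.9 and 34.1 CPM in miR-379KO (log2 fold change -0.70 ± 0.24, adjusted p = 0.0311). Scd1, the stearoyl-CoA desaturase (chromosome 19, 44394450 to 44407709, minus strand), was at 6.76 and 10.6 CPM in WT and at 5.63 and 3.45 CPM in miR-379KO (-0.92 ± 0.29, adjusted p = 0.0217). Fads2 was at 30.3 and 22.8 CPM in WT and at 20.8 and 12.8 CPM in miR-379KO (-0.66 ± 0.25, adjusted p = 0.0476). None of the 3 overlapped between genotypes. Acly was at 22.3 and 27.4 CPM in WT AGO2-IP and at 18.2 and 14.9 CPM in miR-379KO, and narrowly missed the threshold (-0.58 ± 0.23, adjusted p = 0.0546). Fads1 was at 30.9 and 25.7 CPM in WT and at 22.6 and 18 CPM in miR-379KO and did not pass either (-0.48 ± 0.23, adjusted p = 0.116). Acaca, the acetyl-CoA carboxylase, and Elovl6 had values of -0.11 ± 0.22 and 0.11 ± 0.33.

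In the sterol steps, Sqle (chromosome 15, 59315092 to 59331193, plus strand) was the only gene that passed as lower, from 9.71 and 11.0 CPM in WT to 7.16 and 5.88 CPM in miR-379KO (-0.66 ± 0.24, adjusted p = 0.0429). Dhcr7 had the most negative value of the set at -0.96 ± 0.40, but it did not pass (adjusted p = 0.0692) and had few counts, 38 and 19 for WT and 11 and 14 for miR-379KO. Msmo1 was at 8.33 and 6.01 CPM in WT and at 6.69 and 4.34 CPM in miR-379KO, so the genotypes overlapped. The same held for Nsdhl, at 1.57 and 1.39 CPM in WT and 1.64 and 1.53 CPM in miR-379KO, and for Mvk, at 1.67 and 1.5 CPM in WT and 0.704 and 1.92 CPM in miR-379KO. In total 12 of 24 genes had both miR-379KO values below both WT values, compared to 32.2% of all genes tested, and 4 of 24 had both above, compared to 36.1%.

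Idi1 (chromosome 13, 8885606 to 8892396, plus strand) stood apart from its pathway. It received 15 and 13 counts from WT AGO2-IP and 35 and 42 from miR-379KO AGO2-IP, or 1.47 and 1.5 CPM against 4.11 and 5.37 CPM. Both miR-379KO libraries were above both WT libraries although they were less deeply sequenced, and the log2 fold change was 1.66 ± 0.35 (adjusted p = 0.00172) against -0.08 ± 0.38 in total RNA. Hmgcs1, which had the same replicate pattern in WT total RNA, was at 7.94 and 8.09 CPM in WT AGO2-IP and at 7.86 and 8.43 CPM in miR-379KO (0.02 ± 0.24). Fdps was at 2.94 and 3.12 CPM in WT and 1.99 and 2.81 CPM in miR-379KO (-0.34 ± 0.35). The remaining genes with both miR-379KO values above WT, Lss, Hsd17b7 and Stard4, did not pass, at 0.65 ± 0.34, 0.35 ± 0.30 and 0.36 ± 0.32.

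Set against the silent genes of the same library, the 27 genes stood higher in WT than in miR-379KO. The silent-gene rate used as divisor was itself lower in WT (1.4 and 0.945 counts per kb) than in miR-379KO (3.19 and 3.63). Whether other expressed genes gave the same ratios was not tested. Their counts per kb were a median of 10.5 and 14.3 times the silent-gene rate in the WT libraries, with a range of 2.68 to 75.7, and 3.31 and 3.46 times in the miR-379KO libraries, with a range of 0.302 to 19.1. In miR-379KO, 8 genes (Acat2, Dhcr7, Elovl6, Lss, Mvd, Nsdhl, Pmvk and Stard4) were below 2 times the rate in both libraries, compared to 0 in WT. Idi1 was at 3.73 and 4.80 times the rate in WT and at 3.83 and 4.04 times in miR-379KO, so relative to silent genes the genotypes overlapped. When the silent-gene rate was subtracted from each count, the log2 difference was 1.64 for Idi1, while the other 6 genes with a value above 0 in AGO2-IP all turned. They were Lss at -0.38, Hsd17b7 at -0.11, Stard4 at -0.58, Hmgcs1 at -0.19, Nsdhl at -0.87 and Elovl6 at -1.1. This subtraction was added after the data had been seen and has no test.

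**Figure D4:**
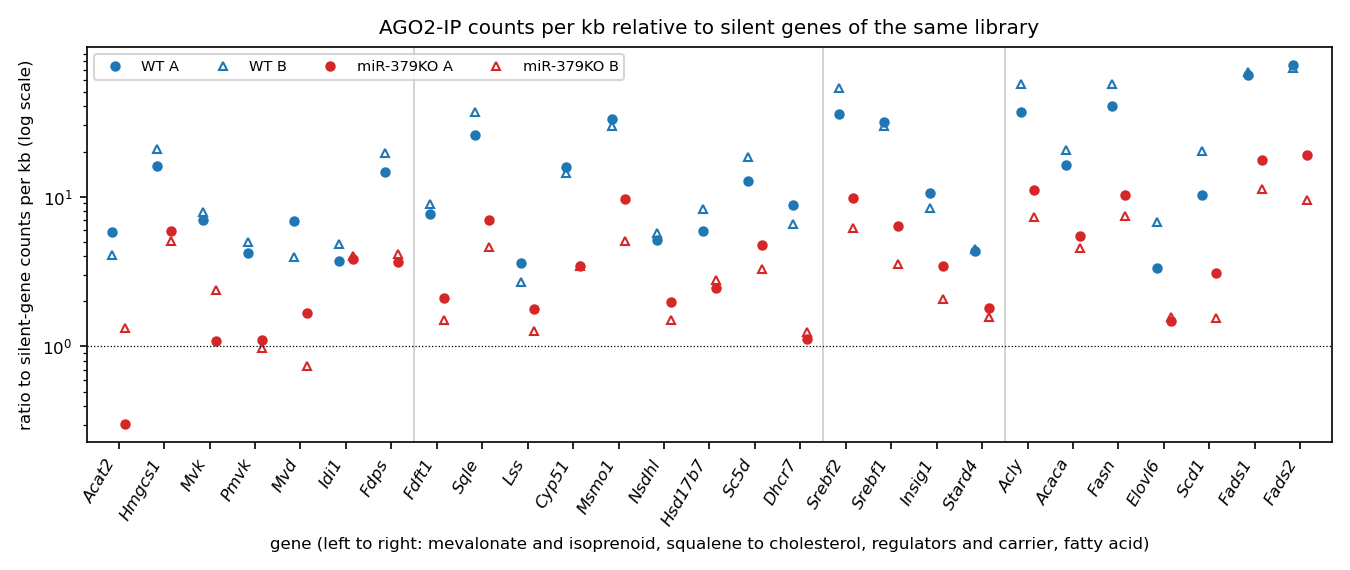
Counts per kb of each gene in AGO2-IP divided by the counts per kb of silent genes in the same library, on a log axis (circles, replicate A; triangles, replicate B; blue, WT; red, miR-379KO; dotted line, equal to silent genes). The WT points range from 2.68 to 75.7 and the miR-379KO points from 0.302 to 19.1, and for Idi1 the points of the genotypes coincide.

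These calls depended on single libraries. Without miR-379KO AGO2-IP B 0 genes were lower, compared to 1.08% of all genes in that fit, and without WT AGO2-IP B 3 were, compared to 5.26%, whereas Idi1 passed in each of the 4 omissions. With TMM factors taken from genes with total RNA counts, the median of all genes moved to 0.16. Then 1 gene was lower (Srebf1) and 1 was higher (Idi1), compared to 4.24% and 24.8% of all genes. With a GC and exon length offset, 4 genes were lower, compared to 12.4% of all genes. Scd1 (-1.16) and Sqle (-0.81) still passed, Msmo1 (-0.97, adjusted p = 0.0133) and Cyp51, the lanosterol demethylase (-0.80, adjusted p = 0.0216), passed in addition, and Srebf1 (-0.58, adjusted p = 0.0661), Srebf2 (-0.39, adjusted p = 0.203), Fasn (-0.35, adjusted p = 0.302) and Fads2 (-0.53, adjusted p = 0.105) did not. Idi1 no longer passed either (log2 fold change 0.88, adjusted p = 0.0588).

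Whether AGO2-IP changed beyond total RNA was tested in 1 fit of all 8 libraries. None of the 27 genes passed, and neither did any of the 17429 genes tested (0.0%) with edgeR, whereas DESeq2 called 0 of the 27 and 17 higher and 97 lower of all genes. At an unadjusted p under 0.05 there were 12 of the 27 genes, compared to 15.7% of all genes. The median difference was -0.82 on the log2 scale compared to 0.01 for all genes, with 4 of 27 genes above 0. The 17429 genes include some that passed the filter on low counts only through AGO2-IP. Idi1 had the largest positive difference at 1.5 ± 0.49 (edgeR, adjusted p = 0.237). Dhcr7 at -1.58 ± 0.51, Srebf1 at -1.11 ± 0.36 and Fasn at -1.06 ± 0.37 were on the other side, with adjusted p values of 0.237, 0.237 and 0.253. Without WT total RNA B, 7 genes passed as lower and 1 as higher, compared to 7.71% and 0.853% of all genes in that fit, and with the GC and exon length offset 6 passed as lower, compared to 7.15%.

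Recovery with AGO2 was compared with total RNA within each genotype, where assay and library protocol changed together and cannot be told apart. In WT, 5 of 27 genes were under-recovered by at least 2-fold at an adjusted p under 0.05 (7.33% of all 17429 genes) and 0 were over-recovered (35.7% of all genes). The median log2 ratio was -0.50 compared to 0.49 for all genes. The 17429 genes include some that passed the filter on low counts only through AGO2-IP. Such genes stand high in AGO2-IP by selection, which raises the median and the over-recovered share of all genes. In the fit of total RNA alone, 12321 genes passed the filter. The 5 were Fdps at -1.94 ± 0.33 (edgeR, adjusted p = 0.000163), Idi1 at -1.63 ± 0.37, Acly at -1.17 ± 0.31, Fdft1, the squalene synthase, at -1.12 ± 0.28 and Nsdhl at -1.01 ± 0.34. Srebf1 was at the other end at 0.81 ± 0.25 (adjusted p = 0.0115), short of 2-fold, and Dhcr7 was at 0.54 ± 0.34. The mevalonate and isoprenoid steps had a median of -0.80, the squalene to cholesterol steps -0.62, the regulators and carrier -0.18 and the fatty acid steps -0.07.

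In miR-379KO, 14 of 27 genes were under-recovered (19.3% of all genes) and 0 were over-recovered (41.6% of all genes). The median was -1.04 compared to 0.47 for all genes, and all 27 values were below 0. The limit on the values of all genes given for WT applies here too. Fdps was again the lowest at -2.69 ± 0.34 (edgeR, adjusted p = 3.04e-06), followed by Acat2, the cytosolic thiolase, at -2.06 ± 0.50 and Fdft1 at -2.03 ± 0.30. Idi1 was at -0.13 ± 0.32 and Elovl6 at -0.09 ± 0.34, the values nearest to 0. By role the medians were -1.56, -1.04, -0.59 and -0.97 for the mevalonate, squalene to cholesterol, regulator and fatty acid groups. The number under-recovered in WT was 3 without WT total RNA B (3.59% of all genes), 8 without WT AGO2-IP B (14.1%) or miR-379KO AGO2-IP A (13.1%), and 9 without WT AGO2-IP A (9.37%). With the GC and exon length offset it was 19 in WT (35.8% of all genes) and 26 in miR-379KO (46.8%), and the median of all genes then moved to -0.53 and -0.86.

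**Figure D5:**
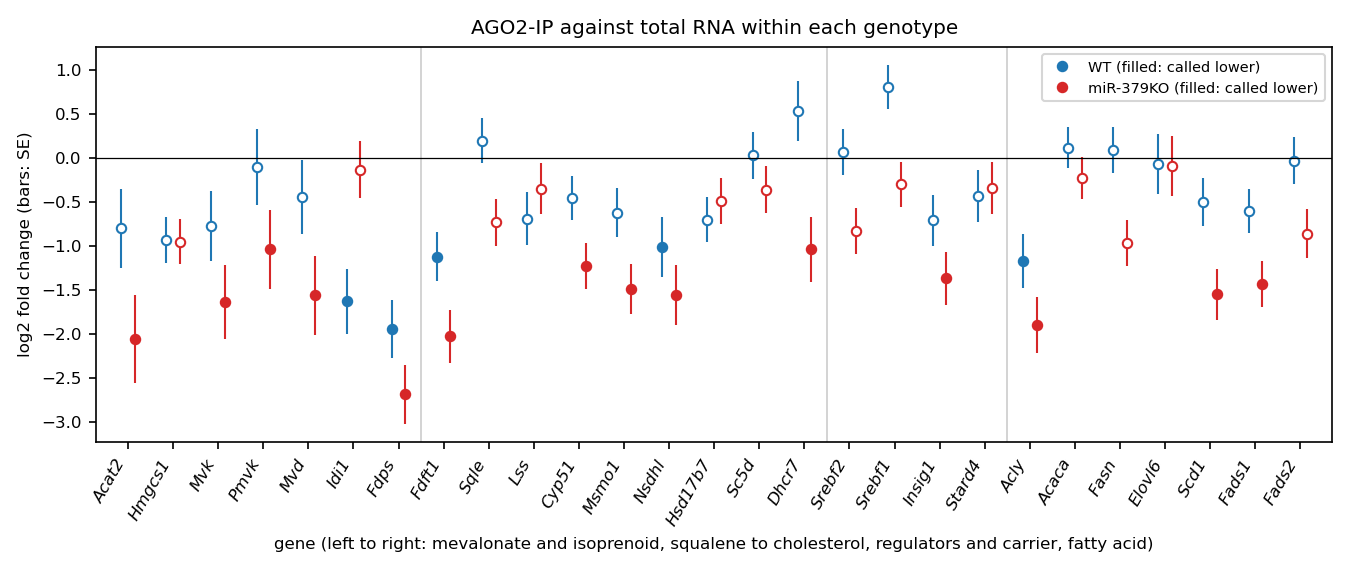
Log2 fold change of AGO2-IP over total RNA for each gene within WT (blue) and miR-379KO (red), with bars of 1 standard error and filled symbols where the gene was called lower. Fdps is the lowest gene in both genotypes, at -1.94 and -2.69, and Srebf1 is the highest in WT at 0.81.

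Other genes of the same pathways were taken from lists by symbol. In total RNA, 0 of 11 other sterol genes, 0 of 15 tested of 18 other fatty acid genes and 0 of 5 tested of 6 genes of the liver X receptor and lipid storage passed, with medians of 0.09, 0.03 and -0.14. The sterol genes with the smallest p were Aacs, an acetoacetyl-CoA synthetase, at 0.16 ± 0.22, Acat1, the mitochondrial thiolase, at 0.14 ± 0.24 and Ebp, a sterol isomerase, at 0.14 ± 0.23. Among fatty acid genes they were Acsl4, an acyl-CoA ligase, at -0.40 ± 0.27, Me1, the cytosolic malic enzyme, at 0.26 ± 0.20 and Scd2, another stearoyl-CoA desaturase, at -0.25 ± 0.27. In AGO2-IP, 3 of 10 tested sterol genes were lower (Aacs, Mbtps1 and Scap) and 0 higher. Of 17 fatty acid genes, 5 were lower (Fads3, Scd2, Elovl1, Tecr and Mid1ip1) and 2 higher (Acacb and Mlxipl). Of 4 storage genes, 1 was lower (Plin2). Over all 13505 genes tested, 9.52% were lower and 21.4% higher. Among genes with a mean over 1000 counts in total RNA, 26.4% were lower. In AGO2-IP Aacs had a log2 fold change of -0.70 ± 0.25, compared to 0.16 ± 0.22 in total RNA. Scap and Mbtps1, which escort and cleave SREBP, were at -0.63 ± 0.23 and -0.75 ± 0.23 in AGO2-IP. The genes that were higher had few counts in total RNA, with 8 to 15 for Acacb and 0 to 2 for Mlxipl, and at most 31 in AGO2-IP.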

How the data were processed

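Counts per gene of 8 libraries, as the authors deposited them, were whole reads without normalization. Per the authors' methods, reads were aligned to mm10 with TopHat and counted by strand on UCSC RefSeq genes with htseq-count (HTSeq 0.6.0 in the submitters' processing notes). Total RNA was sequenced as single-end or paired-end reads, and AGO2-IP as paired-end reads from adapter-ligated libraries. Closing lines of each list that name no gene were left out. They held 19.8% to 23.8% of listed reads in total RNA. In AGO2-IP A and B they held 73.2% and 73.1% for WT but 87.9% and 88.9% for miR-379KO. Of uniquely placed reads in AGO2-IP A and B, 46.6% and 49.7% lay on no gene for WT and 73.4% and 76.4% for miR-379KO.

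Genes were chosen by symbol, and all 27 matched RefSeq on GRCm38.p6 (of 24639 entries, 23598 matched by symbol and 721 by synonym), which gave coordinates, curated exon length, GC content, 3′-UTRs and promoters. The members, lists and tests were chosen with earlier results of these data known. Named in full were the 6 genes with the largest change in total RNA, the 6 in AGO2-IP, the 6 with the largest WT replicate difference and the 5 highest per kb. Of the other lists, up to 3 genes by smallest p and the called genes were named. A gene of the sterol list and a cell type marker were left out and are not reported here.

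edgeR 4.0.16 under R 4.3.3 was used with TMM factors, filterByExpr (minimum count 10), robust quasi-likelihood F tests and Benjamini-Hochberg adjustment over all genes tested. AGO2-IP against total RNA also required 2-fold. Replicate ratios used a prior count of 0.5. Alternatives were DESeq2 1.42.0, RLE factors, no filter, all 8 libraries in 1 fit, factors from genes with a mean of at least 10 total RNA counts, omission of Rn45s and Lars2, a GC and exon length offset (lowess span 0.3), a replicate block and omission of each library. The fits were tested on simulated data. The letters A and B were checked as pairs by the correlation of deviations from group means, which was -0.11 over 10763 genes in total RNA and 0.04 over 4971 genes in AGO2-IP, so they were not treated as pairs.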

Additional observations from a re-analysis of the deposited data

How the results depend on the processing

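In total RNA, 0 of the 27 genes passed under every alternative run, and the median stayed above 0, from 0.01 to 0.29. For miR-379KO against WT in AGO2-IP, the genes lower were 0 with DESeq2 (2.21% of all genes) and 1 with all 8 libraries (1.78%). With factors from genes with total RNA counts 1 was lower (4.24%). The number was 4 without Rn45s and Lars2 (8.41%), where Sqle and Fads2 no longer passed. It was 7 with RLE factors (11.1%) and 8 without a filter (10%). The genes higher were 0 with DESeq2 (3.72%) and 0 with the GC and length offset (14%). The median there was -0.39 with RLE factors and with DESeq2, -0.58 without a filter, -0.40 with the offset, -0.52 with all 8 libraries, -0.19 with factors from genes with total RNA counts and -0.51 to -0.31 on leaving out 1 library. For the AGO2-IP change beyond total RNA, the genes lower were 6 with the offset (7.15% of all genes). The median was -0.57 with RLE and with DESeq2 and -1.01 to -0.42 on leaving out 1 library. For AGO2-IP against total RNA in WT, the genes lower were 19 with the offset and 3 to 9 on leaving out 1 library, with medians of -1.50 and -0.94 to -0.52. In miR-379KO the genes lower were 26 with the offset (46.8% of all genes), with medians of -2.60 with the offset and -0.86 with RLE and with DESeq2. In total RNA, 8 genes changed sign without WT A, among them Idi1 (0.56), Elovl6 (0.42), Hmgcs1 (0.31) and Fdps (-0.07). Each other omission turned 3 or 4 genes. With the offset, 6 genes changed sign in AGO2-IP, namely Hsd17b7 and Stard4 (both -0.17), Hmgcs1 (-0.50), Elovl6 (-0.35), Nsdhl (-0.25) and Mvk (0.13). In WT AGO2-IP against total RNA 6 changed sign, namely Sc5d (-1.87), Sqle (-0.97), Acaca (-0.88), Fasn (-0.71), Srebf2 (-0.45) and Dhcr7 (-0.36), and Dhcr7 ranged from -0.14 (without WT AGO2-IP A) to 0.69 on leaving out 1 library. With the silent-gene rate subtracted, an alternative added after the data were seen, 6 changed sign, namely Lss (-0.38), Hsd17b7 (-0.11), Stard4 (-0.58), Hmgcs1 (-0.19), Nsdhl (-0.87) and Elovl6 (-1.1). The cause was not tested. With the letter as a replicate block, AGO2-IP had 4 genes lower and 1 higher (8.17% and 20.1% of all genes). Total RNA and the change beyond it had 0. AGO2-IP against total RNA had 5 lower in WT (7.21% of all genes) and 13 in miR-379KO (19.4%). The crossed pairing in total RNA, added after the data were seen, called 0 of the 27. In AGO2-IP, 3 genes fell under the filter on low counts.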
